A study of Mus musculus with 53 samples.

Results

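The response of the wild-type mouse liver to a Western diet was read from 16 whole-liver RNA libraries, 7 from mice on the Western diet and 9 from mice on a low-fat control diet, out of 53 libraries in the series. Each liver is named here by the mouse number in its label. They are all the libraries of the diet experiment whose labels give a wild-type genotype, and each library was matched to its column of the count table by the label that names that column. The mice were male C57BL/6J wild-type littermates from a line carrying a Bmp8b knockout, 9 weeks old per the design text, which does not say whether that is the age at the start of feeding, and they ate Western Diet Teklad TD88137 or Low Fat Control Diet Teklad TD08485 for 32 weeks. Livers were snap-frozen, RNA of integrity number 8 or above was used, and libraries were built with an Illumina mRNA kit. No liver from before feeding was analysed here, so a difference between the diets does not tell which diet moved a gene. The survey below covers metabolism, secretion, cell division, stress and immune genes, and names macrophage, matrix and acute phase genes only where they belong to another list or group.

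A Western diet is rich in milk fat, sugar and cholesterol, and long feeding loads hepatocytes with triglyceride and cholesterol ester. Hepatocytes make up most of the liver's mass and fill its messenger RNA with transcripts for plasma proteins, for enzymes of lipid, amino acid and drug metabolism, and for bile acid transporters. Sterol supply is sensed in the endoplasmic reticulum: low sterol releases SREBP2, which turns on cholesterol synthesis, and oxysterols activate LXR, which turns on sterol export.

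Totals per library ran from 9708540 to 14630233 counts and overlapped between the diets. The 9 hepatocyte-defining genes summed to 95500 to 131600 CPM (counts per 1000000 of the TMM-normalized library) on low-fat diet and to 62500 to 92000 CPM on Western diet, ranges that do not overlap. Markers of skeletal muscle summed to less than 1.5 CPM in every liver, and those of exocrine pancreas to 12.4 to 39.2 CPM on low-fat diet and 7.58 to 17.9 on Western diet, with Prss1 and Amy2a5 at 0 throughout. Adipocyte markers summed to 0.753 to 35.4 CPM on low-fat diet and 23.3 to 70.2 on Western diet, most of it from Cidea, which fatty hepatocytes also express. Nerve and Schwann cell markers, Ngfr among them, summed to 5.52 to 10.5 CPM and 11.5 to 13.4 CPM without overlap. Markers of red blood cells, gut, mesothelium, spleen and mast cells had overlapping ranges. TMM factors, which offset differences in library composition, were lower on low-fat diet (0.895 to 0.997) than on Western diet (0.961 to 1.15), with some overlap. Alb made up most of the hepatocyte sum, and Cps1 is also among its 9 genes. Averaged over the 9 genes, the log2 difference from the low-fat mean was -0.75 to -0.41 in the Western livers. In the low-fat livers it was -0.27 to 0.20. The part of hepatocyte markers, nerve markers and composition in the results was not tested. Across all tested genes, the first principal component held 52.4% of the variance and placed the low-fat livers at -38.8 to -12.5. Western livers 32 and 36 lay between the groups at 5.89 and 10.6, and the other 5 Western livers lay at 35.3 to 56.7. Fewer cells of a type and less RNA per cell cannot be told apart in whole tissue.

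Of 13005 tested genes, 4869 were called at a Benjamini-Hochberg adjusted p below 0.05 by edgeR's quasi-likelihood test, 37.4% of all, with 2656 higher on Western diet (20.4%) and 2213 lower (17%). These shares of all tested genes are the background for the counts of each list below. Rises were larger than falls. The median fold was 1.88 among genes that rose and 1.27 among genes that fell. A log2 fold change above 2 was reached by 241 genes that rose, and one below -2 by 24 genes that fell. Every Western liver lay above every low-fat liver, or below, for 946 genes, which is 7.27% of all tested, 614 of them above and 332 below. Without livers 32 and 36 the calls numbered 5172 and the separated genes 2229. Libraries carry the i5 sequencing index D501 (4 low-fat and 3 Western) or D502 (5 and 4). Within D501 3645 genes were called, and within D502 1401. Western livers 32 and 36 both carry D502. A difference between the indexes therefore cannot be told apart from one between these livers and the other Western livers.

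Direction went with abundance. Above a mean of 1000 CPM, 50.4% fell and 9.73% rose, and among those of 100 to 1000 CPM 40.5% fell and 9.3% rose. Between 1 and 10 CPM the order was turned, with 31.4% higher and 5.96% lower. Below 1 CPM 34.1% were higher, but genes this low pass the filter on counts only through the group in which they are high, so that share is a description of the filter as well. Among symbol families with at least 10 tested genes, the 6 with the largest share of rises were the Toll-like receptors (Tlr, 10 of 11 tested), tumour necrosis factor receptors (Tnfrsf, 10 of 12), annexins (Anxa, 8 of 10), the metalloproteases Adamts (9 of 12), the chemokines Ccl (8 of 11) and interferon-inducible Ifi genes (12 of 17). Those with the largest share of falls were subunits of respiratory complex I (Ndufb, 8 of 10), major urinary proteins (Mup, 11 of 18), splicing factors (Srsf, 6 of 10), glucuronosyltransferases (Ugt, 9 of 15), ubiquitin ligase adaptors (Dcaf, 7 of 13) and serpins of clade A (Serpina, 9 of 17).

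**Figure D1:**
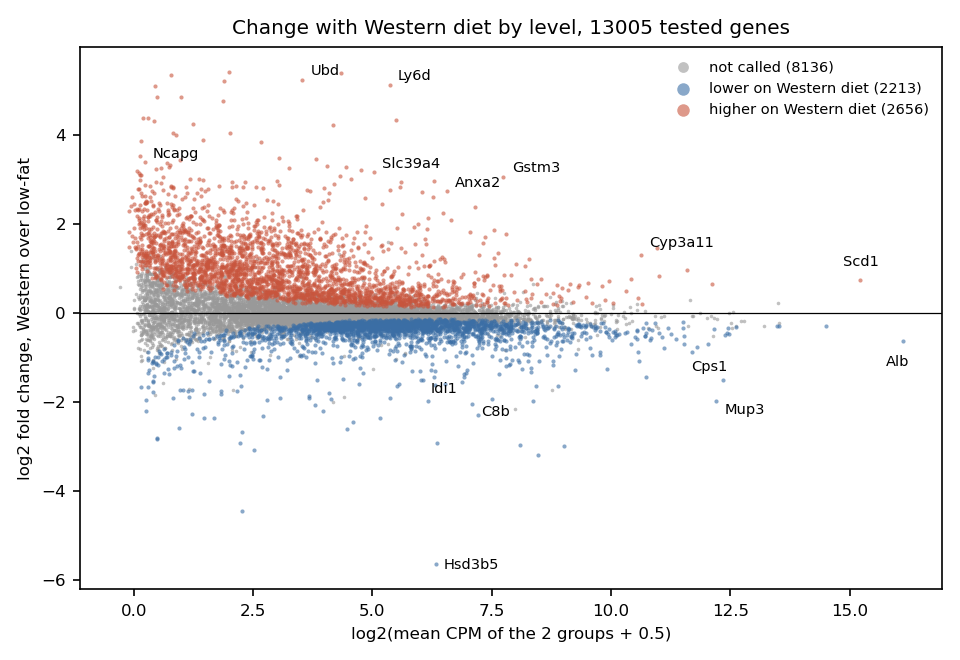
Log2 fold change of Western over low-fat diet (vertical) against log2(mean CPM + 0.5) (horizontal) for 13005 tested genes, with 2656 called higher in red, 2213 called lower in blue and the rest in grey. Large rises gather at low and middle levels, and at the highest levels most called genes lie below 0, with Scd1 the most abundant gene above it.

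Ly6d, which encodes a surface protein of the Ly6 family held by a lipid anchor, was among the 10 largest rises without overlap in genes reaching a mean of 10 CPM. It lies on chromosome 15 from 74762056 to 74763620 (GRCm38). On low-fat diet its level ran from 0.836 to 6.47 CPM with a median of 1.56, and on Western diet from 22.4 to 137 with a median of 100.1. The groups were far apart, with Western livers 32 and 36 at the low end of theirs, and edgeR gave a change of 5.14 on the log2 scale (SE 0.60, adjusted p = 2.90e-06). Ubd, the ubiquitin-like modifier FAT10 that inflammatory cytokines induce, ran from 0.251 to 0.834 CPM with a median of 0.546 against 2.63 to 58.4 with a median of 16.9. That is a change of 5.25 on the log2 scale (SE 0.64, adjusted p = 3.82e-06), without overlap. Ephb2, a receptor tyrosine kinase for ephrin-B ligands, ran from 1.15 to 7.21 CPM with a median of 2.03 against 9.75 to 50.3 with a median of 30.8, a change of 3.31 on the log2 scale (SE 0.45, adjusted p = 9.81e-06). Its lowest Western liver stood above the highest low-fat liver. Fam83a, a signalling adaptor linked to growth factor receptors, ran from 0.0881 to 2.34 CPM with a median of 1.04 against 4.39 to 25.4 with a median of 15.4, again without overlap, a change of 3.49 on the log2 scale (SE 0.46, adjusted p = 8.28e-06). Beside the macrophage and acute phase genes Gpnmb, Trem2, Mmp12, Lcn2 and Orm3, the tenth of these rises was Gsta1, a glutathione transferase, 9.69-fold higher.

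Among the 10 largest falls without overlap were genes of hepatocyte metabolism and secretion. Etnppl, which breaks down phosphoethanolamine, ran from 55.6 to 214 CPM with a median of 96.7 on low-fat diet and from 13.1 to 45.5 with a median of 28.5 on Western diet, a change of -1.97 on the log2 scale (SE 0.29, adjusted p = 2.04e-05). Avpr1a, the vasopressin receptor of hepatocytes, ran from 12.8 to 55.4 CPM with a median of 27.3 against 5.86 to 9.44 with a median of 6.56, a change of -1.94 on the log2 scale (SE 0.26, adjusted p = 1.06e-05). All 7 Western livers lay in a narrow band under the low-fat range. C8b, the beta chain of complement component C8 and also a member of the male-biased list, ran from 128 to 313 CPM with a median of 228 against 35.1 to 88.8 with a median of 43.5, a change of -2.04 on the log2 scale (SE 0.35, adjusted p = 8.92e-05). Sult2a8, a liver sulfotransferase, ran from 492 to 929.6 CPM with a median of 739 against 64.4 to 421 with a median of 146, a change of -1.65 on the log2 scale (SE 0.40, adjusted p = 0.00218). The spread among the Western livers was wide for this gene. Cyp2u1, a fatty acid hydroxylase of the P450 family, ran from 11.1 to 27.8 CPM with a median of 19.2 against 1.66 to 9.75 with a median of 4.96, a change of -1.91 on the log2 scale (SE 0.30, adjusted p = 4.03e-05). Acpp, an acid phosphatase, ran from 9.67 to 57.9 CPM with a median of 16.0 against 1.49 to 8.77 with a median of 5.29, a change of -2.07 on the log2 scale (SE 0.36, adjusted p = 1.22e-04). For both genes the highest Western liver stayed below the lowest low-fat liver. The other 4 of these 10 were the male-biased genes Hsd3b5, Slco1a1, Mup21 and Mup3.

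**Figure D2:**
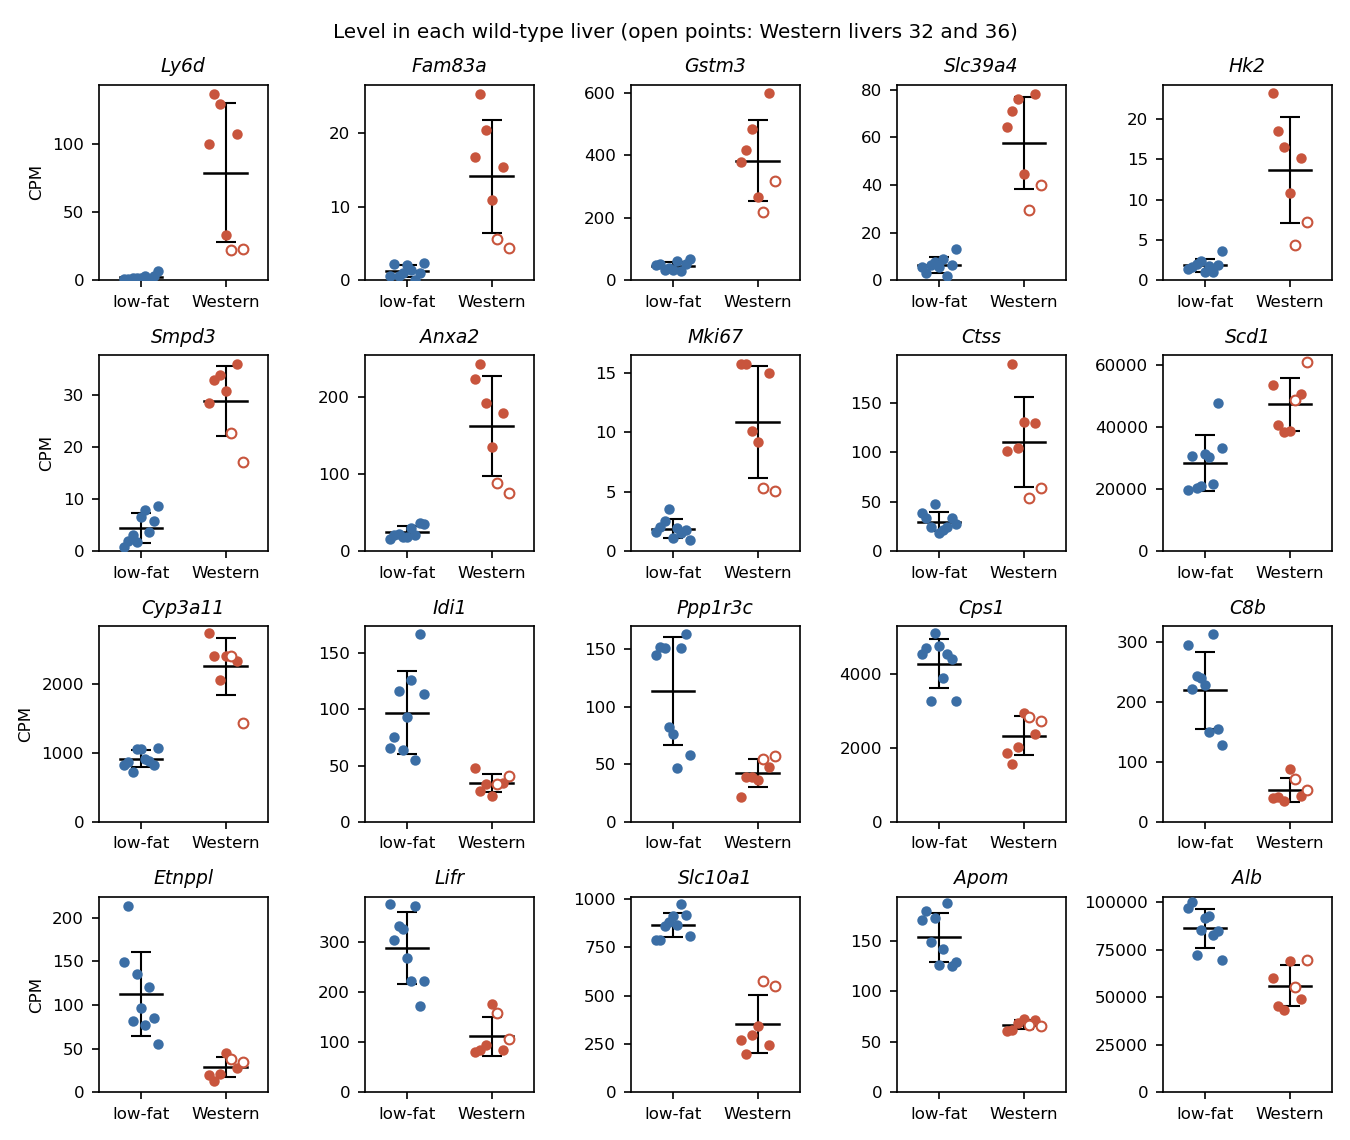
Level in CPM (vertical, linear from 0) of 20 genes in each of the 9 low-fat livers (blue) and 7 Western livers (red), with the mean and SD in black. Western livers 32 and 36, drawn open, lie nearest the low-fat livers for genes such as Ly6d, Anxa2 and Mki67, and within the other Western livers for Apom, Idi1 and C8b.

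Counted in library space, the largest gain was Scd1, the stearoyl-CoA desaturase that makes monounsaturated fatty acids, on chromosome 19 from 44394455 to 44407879. It ran from 19770 to 47750 CPM with a median of 30270 on low-fat diet and from 38440 to 61150 with a median of 48640 on Western diet. The groups overlapped through 1 low-fat liver, with a change of 0.74 on the log2 scale (SE 0.17, adjusted p = 0.0012). The gain in its mean, 18970 CPM, was larger than those of the other 9 genes with the largest gains. CPM is not divided by gene length, so gains and losses rank shares of the library and not molecules. After it came the haem-binding hemopexin Hpx (1980 CPM), the hemoglobin-binding haptoglobin Hp (1965), the lipoprotein gene Apoa4 (1855), the drug-metabolizing Cyp3a11 (1342), the glutathione transferase Gstm1 (1145), the peroxisomal thiolase Acaa1b (703.1), the fatty aldehyde dehydrogenase Aldh3a2 (490.1), the flavin monooxygenase Fmo5 (424) and the droplet coat protein Plin2 (371). The largest loss was that of Alb, which encodes serum albumin. Alb ran from 69770 to 99910 CPM with a median of 85530 on low-fat diet and from 43330 to 69460 with a median of 55340 on Western diet, ranges that meet but do not overlap. Its mean changed by -30240 CPM. Further large losses were those of Mup3 (-5610 CPM), the serpin Serpina3k (-4964), the fibrinogen chains Fga (-1956) and Fgb (-1834), the urea cycle enzyme Cps1 (-1944) and the thyroxine carrier Ttr (-1875). The mitochondrial transcripts mt-Co1 (-4504), mt-Co3 (-2345) and mt-Atp6 (-2368) complete these 10, but their adjusted p lay close to the threshold, at 0.0447, 0.0287 and 0.0447. Their calls were lost on leaving out any of Western livers 14, 17 and 34 (adjusted p 0.0608 to 0.109) and with upper quartile scaling (0.0574 to 0.0858). With no filter all 3 calls were lost as well (adjusted p by edgeR 0.0593 to 0.0970). Those of mt-Co1 and mt-Atp6 were lost with only the wild-type groups in the model (0.05405 and 0.05395). They were also lost without low-fat liver 7, 12, 21 or 25. The call of mt-Co1 was lost without low-fat liver 18 or 20, and that of mt-Atp6 without Western liver 5.

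More of the cholesterol synthesis genes fell than rose. Of 23 genes for sterol synthesis and uptake, 14 were lower and 0 higher, with a median log2 fold change of -0.80 where that of all tested genes was -0.02. Idi1, which isomerizes the isoprene unit, ran from 54.6 to 167 CPM with a median of 93.2 on low-fat diet and from 23 to 47.4 with a median of 33.7 on Western diet, a change of -1.51 on the log2 scale (SE 0.21, adjusted p = 1.04e-05). Tm7sf2, a sterol reductase, ran from 82.3 to 138 CPM with a median of 118 against 28.7 to 68.8 with a median of 46.1, a change of -1.3 on the log2 scale (SE 0.16, adjusted p = 4.09e-06). In both genes every Western liver lay below every low-fat liver, with livers 32 and 36 the highest Western livers for Tm7sf2 but not for Idi1. Sqle, squalene epoxidase, was 5.42-fold lower, Cyp51, the lanosterol demethylase, 2.2-fold lower and Stard4, a sterol carrier, 1.82-fold lower. The list's mean log2 difference from the low-fat mean varied from -0.65 to 0.55 among the low-fat livers themselves, and from -1.36 in Western liver 23 to -0.35 in liver 36.

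Sterol export and storage genes mostly moved the other way. Of 14 genes of this list, 8 were higher and 2 lower (median 0.30), and the mean over the list was above all 9 low-fat livers in 7 of 7 Western livers. Abcg1, which passes cholesterol to lipoproteins, ran from 3.17 to 7.6 CPM with a median of 4.79 against 11.2 to 23.2 with a median of 17.4, a change of 1.75 on the log2 scale (SE 0.21, adjusted p = 3.70e-06). The lowest Western liver stood above the highest low-fat liver. Abcg5, a transporter subunit that moves sterol into bile, was 1.53-fold higher but not called without livers 32 and 36 (adjusted p = 0.0614). Within index D501 it was not called either, at a log2 fold change of 0.17 (adjusted p = 0.663 by edgeR). Soat1, which esterifies cholesterol, was 2.78-fold higher, and Mylip, which marks the LDL receptor for breakdown, 1.58-fold higher. The bile salt export pump Abcb11 was 1.71-fold lower.

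Fatty acid synthesis did not move as a block. Of 22 genes for fatty acid and triglyceride synthesis, 3 were higher and 4 lower (median -0.16), shares below or near those of all genes. The genes that rose were Scd1, its isoform Scd2 at 3.56-fold higher and Mogat1, an acyltransferase of triglyceride synthesis, at 3.43-fold higher from a mean of 2.82 CPM. Mlxipl, which encodes the sugar-sensing factor ChREBP, was 1.45-fold lower. Fasn, fatty acid synthase, was not called, with a log2 fold change of -0.29 and SE 0.33, and took the opposite sign (0.10) in the libraries of index D501 alone. Of 31 genes of fatty acid oxidation and other PPAR-alpha targets, 7 were higher (22.6%, near the 20.4% of all tested genes). Only 1 was lower (3.23%, beside 17% of all tested genes). The count of rises was 12 without low-fat liver 21 or with upper quartile scaling. Vnn1, a pantetheinase, was 1.82-fold higher, the peroxisomal enzymes Ehhadh and Acaa1b 1.54-fold higher and 1.7-fold higher, and the thioesterase Acot2 2.26-fold higher. Beyond the droplet genes Plin4 and Cidec, Plin3 was 1.46-fold higher and Plin2 1.52-fold higher, and 11 of 16 droplet proteins and lipases were not called.

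Of 29 enzymes that remodel membrane lipids, 10 were higher (34.5%, beside 20.4% of all tested genes). Lower were 6 (20.7%, near the 17% of all tested genes). Only 3 were lower without Western liver 5, 14 or 23, or with upper quartile scaling. Smpd3, a neutral sphingomyelinase that releases ceramide, ran from 0.737 to 8.53 CPM with a median of 3.61 against 17.0 to 35.8 with a median of 30.6, a change of 2.70 on the log2 scale (SE 0.33, adjusted p = 3.82e-06). The groups were well separated, and livers 32 and 36 were the lowest of the Western livers. Lpcat2, an acyltransferase of phosphatidylcholine, was 3.11-fold higher, and Sptlc2, a subunit of the enzyme that starts sphingolipid synthesis, 1.52-fold higher. Pemt, which makes phosphatidylcholine from phosphatidylethanolamine in hepatocytes, was 1.44-fold lower. Among 24 apolipoproteins and lipoprotein enzymes, 11 were lower (45.8%) and 3 higher (median -0.26). That share lower lies between the 40.5% of all genes of 100 to 1000 CPM and the 50.4% of those above 1000 CPM. Apom, the carrier of sphingosine-1-phosphate in HDL, ran from 125 to 188 CPM with a median of 149 against 61.3 to 72.7 with a median of 66.5, a change of -1.20 on the log2 scale (SE 0.12, adjusted p = 2.54e-07). The Western livers were tightly grouped and lay below all low-fat livers. Apof was 1.37-fold lower and Apoh 1.52-fold lower, and Apobec1, which edits the Apob transcript, 1.73-fold higher.

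Genes of glucose handling were read in a pair of lists. Of 18 genes of the hepatocyte forms, 7 were lower (38.9%) and 2 higher, and 11 were lower without low-fat liver 7 or by limma voom with quality weights. Of all genes of 100 to 1000 CPM 40.5% were lower. Of 26 forms found in most tissues, 11 were higher and 1 lower, and this list's mean was above all low-fat livers in 7 of 7 Western livers. The difference between the lists was not tested. Hk2, a hexokinase scarce in healthy hepatocytes, ran from 1.00 to 3.65 CPM with a median of 1.80 against 4.33 to 23.2 with a median of 15.2, a change of 2.88 on the log2 scale (SE 0.39, adjusted p = 1.04e-05). Pkm, the pyruvate kinase outside the hepatocyte, ran from 15.8 to 25.3 CPM with a median of 19.6 against 31.1 to 71.0 with a median of 62.2, a change of 1.41 on the log2 scale (SE 0.19, adjusted p = 1.03e-05). Each separated the groups in full. Hk3 was 3.4-fold higher, and the lactate exporter Slc16a3 4.94-fold higher from a mean of 0.207 CPM. White blood cells also express Hk3, Pkm and Slc16a3, and the class II, pattern recognition and dendritic cell lists described further on were higher in the same livers. The part of such cells was not tested.

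Ppp1r3c, a subunit that brings protein phosphatase to glycogen, ran from 47.1 to 163 CPM with a median of 145 against 21.1 to 57.2 with a median of 39.2, a change of -1.43 on the log2 scale (SE 0.26, adjusted p = 1.51e-04). The low-fat livers were split into a high and a low set for this gene, and the lowest of them overlapped the Western livers. Its relative Ppp1r3b was 2.06-fold lower, the glucose-6-phosphate transporter Slc37a4 1.45-fold lower and the glucokinase inhibitor Gckr 1.2-fold lower. The labels do not give the hour of collection or the feeding state, so their part was not tested.

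**Figure D3:**
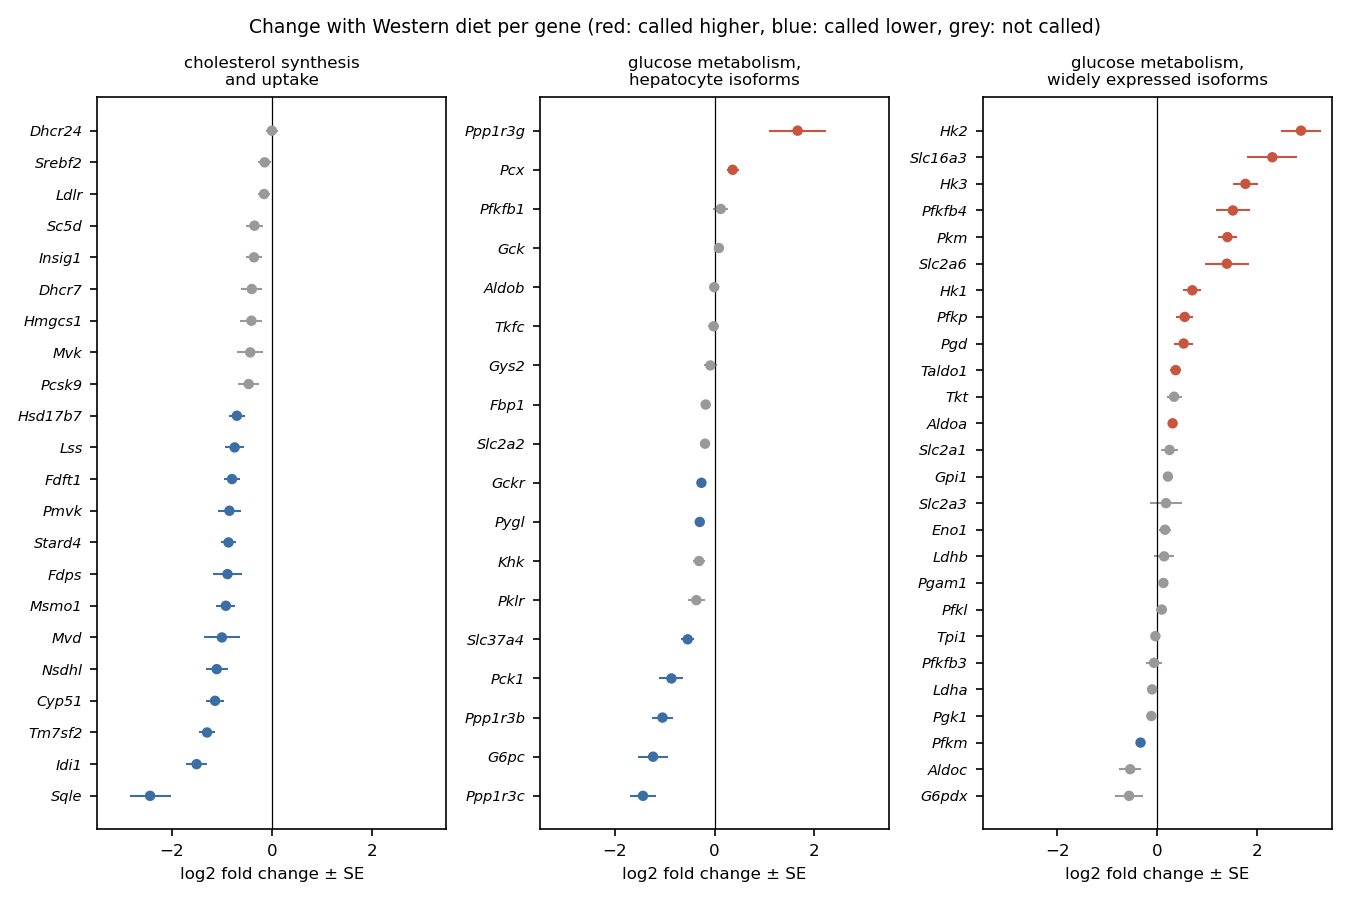
Log2 fold change of Western over low-fat diet with its SE (horizontal) for tested genes of sterol synthesis and uptake (1 member not reported here is left out), hepatocyte forms of glucose metabolism (18) and widely expressed forms (26). Called genes are red (higher) or blue (lower), with blue points but no red ones among the sterol genes and Hk2 at the head of the widely expressed forms.

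Most genes of amino acid breakdown and the urea cycle were lower, by small folds. Of 52 genes, 31 were lower (59.6%, beside 17% of all tested genes) and 2 higher (median -0.36). Only 5 were lower within index D502, and 3 when a fold above 1.5 was tested. The groups were separated by 11 members, where 7.27% of all tested genes separated them. Cps1, the entry enzyme of the urea cycle, ran from 3258 to 5113 CPM with a median of 4536 against 1569 to 2936 with a median of 2365, a change of -0.88 on the log2 scale (SE 0.18, adjusted p = 5.91e-04). Gls2, the liver glutaminase, ran from 344 to 474 CPM with a median of 406 against 118 to 269 with a median of 228, a change of -0.95 on the log2 scale (SE 0.15, adjusted p = 5.05e-05). In both genes all Western livers lay below all low-fat livers. Within index D502 Cps1 was not called, at a log2 fold change of -0.63 (adjusted p = 0.0533 by edgeR). Agxt, which detoxifies glyoxylate, was 1.96-fold lower, and the related Agxt2 was one of the members that rose, 1.51-fold higher. The mean over the list was below all low-fat livers in 7 of 7 Western livers, from -0.84 in liver 14 to -0.16 in liver 36. The summed level of hepatocyte-defining genes was lower in the same livers. Most of that sum is Alb, and Cps1 belongs to both lists, so the lists are not independent. The part of hepatocyte-defining genes in this fall was not tested.

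Of 39 cytochromes P450 of families 1 to 3, which hold most drug-metabolizing oxidases, 17 were lower (43.6%), 6 higher (10 without low-fat liver 21) and 16 not called. Of all genes of 100 to 1000 CPM 40.5% were lower. Cyp3a11, the main mouse counterpart of the human drug-metabolizing CYP3A4, ran from 718 to 1073 CPM with a median of 879.7 against 1432 to 2741 with a median of 2405, a change of 1.3 on the log2 scale (SE 0.16, adjusted p = 3.91e-06). Every Western liver lay above every low-fat liver. Cyp2b13, a female-biased cytochrome, ran from 0 to 0.735 CPM with a median of 0.182 against 0.465 to 7.54 with a median of 4.00, a change of 3.90 on the log2 scale (SE 0.67, adjusted p = 8.96e-05). Its groups overlapped, and the low-fat mean rests on 28 counts over 9 libraries. Cyp2c68 was 1.94-fold lower. The abundant Cyp2e1, at 6671 CPM, was not called at a log2 fold change of -0.34, but was called without livers 32 and 36 (-0.63, adjusted p = 0.0176). Reads of the Cyp2c, Cyp2d, Ugt2b, Gst, Mup and H2-Q families may be split among near-identical copies, so single members are uncertain. Among 30 conjugating enzymes 18 were lower (0 within index D502) and 2 higher. Ugt2b5 and Ugt2a3, glucuronosyltransferases, were 1.47-fold lower and 1.51-fold lower, and Glyat, which joins acids to glycine, 1.34-fold lower.

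Glutathione and antioxidant enzymes mostly rose. Of 38 tested, 20 were higher (52.6%, beside 20.4% of all tested genes), with a median of 0.53. Lower were 6 (15.8%, near the 17% of all tested genes). The groups were separated by 13 members, where 7.27% of all tested genes separated them. The mean over the list was above all low-fat livers in 7 of 7 Western livers. Gstm3, a glutathione transferase, ran from 28.8 to 68.1 CPM with a median of 48.8 against 218 to 598 with a median of 379, a change of 3.07 on the log2 scale (SE 0.36, adjusted p = 2.71e-06). Nqo1, a quinone reductase and classic target of the oxidant-sensing factor NRF2, ran from 4.76 to 13.4 CPM with a median of 6.77 against 15.5 to 23.5 with a median of 17.5, a change of 1.25 on the log2 scale (SE 0.17, adjusted p = 1.24e-05). Both separated the groups without overlap, livers 32 and 36 included. Srxn1, which repairs oxidized peroxiredoxins, was 2.21-fold higher, the extracellular superoxide dismutase Sod3 2.04-fold higher and the abundant Gstm1 1.78-fold higher. The rise did not cover the whole list. Gclc, Gclm, Txnrd1, Osgin1 and Prdx1 were among the 12 members not called, and Cat, Sod1 and Sod2 were among the 6 that were lower.

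Male-biased genes, which the pulsed growth hormone of male mice maintains, were mostly lower. Of 24 male-biased genes 14 were lower and 0 higher (median -0.86), and of 18 major urinary proteins 11 were lower, or 6 or 7 without low-fat liver 25 or any of Western livers 5, 14, 17 and 34. Nudt7, a peroxisomal hydrolase of coenzyme A, ran from 456 to 685 CPM with a median of 655 against 162 to 448 with a median of 257, a change of -1.08 on the log2 scale (SE 0.22, adjusted p = 4.52e-04). Here the groups did not overlap. Cyp7b1, an oxysterol hydroxylase, was 3.02-fold lower. The female-biased list went both ways, with 6 of 18 tested (29 listed) higher and 5 lower. Ntrk2, a neurotrophin receptor, was 2.01-fold higher and Cyp39a1, a bile acid enzyme, 1.96-fold lower. Lifr, the receptor of leukaemia inhibitory factor, ran from 172 to 376 CPM with a median of 304 against 80.1 to 177 with a median of 93.9, a change of -1.37 on the log2 scale (SE 0.26, adjusted p = 2.94e-04). A single pair of livers overlapped between the groups at this gene. Liver 32 was nearest to the low-fat livers for the male-biased list, at -0.44 against -2.09 to -1.13 in the Western livers other than 32 and 36. Without livers 32 and 36 the log2 fold change of Hsd3b5 was -7.96 (-5.65 with them), that of Slco1a1 -4.28 (-2.96) and that of Mup21 -3.52 (-2.91).

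Of 26 genes of bile acid synthesis and transport 14 were lower and 4 higher, and the mean over the list was below all low-fat livers in 7 of 7 Western livers. Slc10a1, which takes bile salts up from blood, ran from 787 to 973 CPM with a median of 864 against 199.9 to 576 with a median of 295, a change of -1.29 on the log2 scale (SE 0.23, adjusted p = 1.44e-04). Abcc4, which pumps bile acids back to blood, ran from 1.25 to 4.27 CPM with a median of 2.57 against 5.73 to 15.3 with a median of 12.5, a change of 2.08 on the log2 scale (SE 0.26, adjusted p = 4.14e-06). Neither gene showed overlap. Abcc3, a further basolateral pump, was 1.58-fold higher. In synthesis, Cyp27a1 of the acidic pathway was 1.44-fold lower, and Cyp7a1, the rate-limiting enzyme of the classic pathway, was not called at a log2 fold change of 0.39 with SE 0.36.

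Few regulators were called. Of 34 liver transcription factors and nuclear receptors, 2 were higher (5.88%, beside 20.4% of all tested genes). Lower were 6 (17.6%, near the 17% of all tested genes), or 10 without livers 32 and 36 and 12 by limma voom. Klf6 was 2.98-fold higher and the retinoic acid receptor Rarb 1.66-fold higher, while Hnf4a was 1.43-fold lower and the thyroid hormone receptor Thrb 1.27-fold lower. Of 21 clock genes 6 were lower (28.6%, beside 17% of all tested genes) and 0 higher. Nfil3, a repressor of clock output genes, ran from 19.3 to 45.9 CPM with a median of 29.8 against 12.5 to 20.3 with a median of 14.8, a change of -1.02 on the log2 scale (SE 0.18, adjusted p = 1.32e-04). The groups overlapped. Cry1 was 2.42-fold lower, Hlf 1.31-fold lower and Rora 1.23-fold lower. Clock genes vary over the day, and the hour of collection is not in the labels, so its part was not tested.

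Of 53 complement and coagulation genes, 25 were lower and 9 higher (17%, near the 20.4% of all tested genes). The groups were separated by 16 members, where 7.27% of all tested genes separated them. The share that was lower, 47.2%, lies between the 40.5% and 50.4% of all genes of 100 to 1000 CPM and of more. The mean over the list was below all low-fat livers in 0 of 7 Western livers and above all of them in 1, at -0.08 to 0.20. The urokinase receptor Plaur was 7.53-fold higher from a mean of 0.224 CPM, and the complement chains C1qb and C1qc, which macrophages make, 2.92-fold higher and 2.75-fold higher. The falls include Fga, Fgb and C8b, products of hepatocytes. Among 25 other secreted regulators, Igfbp3 was 2.21-fold higher and the activin subunit gene Inhbc 1.53-fold lower, within 6 higher and 10 lower.

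Of 33 genes of the unfolded protein and integrated stress responses, 7 were higher (21.2%, near the 20.4% of all tested genes) and 12 lower (36.4%). Both counts were 0 within index D502. The count of rises fell to 4 without low-fat liver 7 or Western liver 5 or 34, and that of falls to 6 or 7 without low-fat liver 25 or Western liver 17 or with upper quartile scaling. Atf3, an early stress factor, ran from 0.737 to 3.13 CPM with a median of 2.29 against 2.38 to 15.7 with a median of 10.8, a change of 2.08 on the log2 scale (SE 0.38, adjusted p = 1.64e-04). Only Western liver 36 overlapped the low-fat livers. Ddit3, which encodes the stress factor CHOP, was 1.46-fold higher and its target Trib3 1.82-fold higher, but Atf4, upstream of both, was 1.32-fold lower. Hsp90b1, a chaperone of the endoplasmic reticulum, was 1.22-fold lower, a call lost without low-fat liver 25 (adjusted p = 0.0506) or Western liver 17 (0.0681) and with upper quartile scaling (0.0569).

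Of 78 nuclear genes of oxidative phosphorylation 36 were lower (46.2%) and 0 higher (median -0.17). Of all genes of 100 to 1000 CPM 40.5% were lower and 9.3% higher, with a median of -0.16. Members that fell include Ndufb5 and Ndufb9 of complex I, 1.34-fold lower and 1.3-fold lower. Uqcrh of complex III was 1.27-fold lower and Atp5g1 of the ATP synthase 1.31-fold lower. Of 12 genes of the mitochondrial genome 5 were lower, but 1 without Western liver 14, 17 or 34, 3 without low-fat liver 7, 12, 21 or 25, and 8 without Western liver 36. The count was 9 by limma voom, 2 with upper quartile scaling or no filter, and 3 with only the wild-type groups in the model. Of 79 cytosolic ribosomal protein genes 22 were lower (27.85%, beside 17% of all tested genes), with a median of -0.14. Rpl7l1 was 1.26-fold lower and Rpl35a 1.33-fold lower. That count was 10 with upper quartile scaling, 13 with a filter of 1 CPM in 7 libraries, 14 without low-fat liver 18 and 13 without Western liver 17. Of 76 mitochondrial ones 19 were lower and 1 higher, with Mrpl15 1.41-fold lower, and 10 to 12 without Western liver 5, 14 or 23 or with upper quartile scaling. Of 55 translation factors 14 were lower (25.45%) and 6 higher (10.9%), beside 17% and 20.4% of all tested genes. Chaperones gave 19 lower of 65 (10 with upper quartile scaling, 12 without low-fat liver 25, 0 within index D502) and 3 higher, among them the small heat shock protein Hspb1, 2.14-fold higher. Upper quartile scaling moved the median of all genes from -0.02 to 0.03, a shift small beside most changes but not beside these.

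Of 24 mitotic genes tested, of 25 listed, 24 were higher (median 2.12), and the mean over the list was above all low-fat livers in 7 of 7 Western livers. That count is a description, since the whole list summed to a mean of 18.0 CPM on low-fat diet and genes this low can pass the filter on counts only through the group in which they are high. Mki67, the gene of the Ki-67 proliferation antigen, ran from 0.937 to 3.54 CPM with a median of 1.76 against 5.06 to 15.8 with a median of 10.1, a change of 2.54 on the log2 scale (SE 0.36, adjusted p = 1.58e-05). Top2a, which untangles replicated DNA, ran from 0.937 to 2.57 CPM with a median of 1.64 against 2.17 to 11.2 with a median of 8.12, a change of 2.12 on the log2 scale (SE 0.32, adjusted p = 2.46e-05). Mki67 separated the groups, and Top2a overlapped narrowly. Ncapg, a condensin subunit, was 10.5-fold higher and the kinesin Kif20a 4.81-fold higher, from means of 0.108 and 1.09 CPM. The list's mean log2 difference was 0.51 in liver 32, 0.70 in liver 36 and 1.41 to 2.04 in the others, where the low-fat livers ran from -0.17 to 0.13. These counts do not tell which cells divided.

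Promoters of mitotic genes share a known feature, the CCAAT box bound by the factor NF-Y. CCAAT, searched on both strands in the 250 bases before the start, was in 17 of the 20 mitotic genes with a RefSeq promoter (85%) and in 37.5% of 27025 genes. The 4 shown are the members with the smallest p among those called higher that have 1 start and a match in the last 150 bases, each printed 5′ to 3′ up to the base before the start, with matches in capitals (ATTGG is the box on the other strand). Cdc20, which activates the anaphase complex, and Kif23, a kinesin of cell cleavage, were chosen this way after their values were seen, at 5.41-fold higher and 3.38-fold higher. In GRCm38.p6, all on the minus strand, they are chr7:135716380-135716529, chr11:99024190-99024339, chr4:118437344-118437493 and chr9:61946800-61946949.
Mki67: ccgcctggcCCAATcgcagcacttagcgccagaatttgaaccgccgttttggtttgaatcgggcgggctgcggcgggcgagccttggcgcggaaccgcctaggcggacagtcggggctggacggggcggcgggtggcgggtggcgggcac
Top2a: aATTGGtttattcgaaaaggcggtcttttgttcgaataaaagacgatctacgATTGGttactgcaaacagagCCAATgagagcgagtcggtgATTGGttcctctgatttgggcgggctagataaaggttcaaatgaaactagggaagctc
Cdc20: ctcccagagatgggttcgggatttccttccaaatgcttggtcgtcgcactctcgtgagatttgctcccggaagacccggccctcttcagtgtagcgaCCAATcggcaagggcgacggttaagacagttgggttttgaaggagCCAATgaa
Kif23: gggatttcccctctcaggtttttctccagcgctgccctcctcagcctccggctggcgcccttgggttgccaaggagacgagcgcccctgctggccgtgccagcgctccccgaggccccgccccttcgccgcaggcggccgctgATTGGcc
Top2a held 4 matches in this stretch, Cdc20 2, and Mki67 and Kif23 1 each. A match is a run of letters and says nothing of binding in these livers.

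DNA replication genes rose less evenly. Of 27 tested 15 were higher and 1 lower (median 0.55), and all 7 Western livers again had a list mean above all low-fat livers. Mcm6, a subunit of the replicative helicase, ran from 3.00 to 6.42 CPM with a median of 4.27 against 6.66 to 18.8 with a median of 13.6, a change of 1.47 on the log2 scale (SE 0.26, adjusted p = 1.48e-04). The groups did not overlap. Its partner Mcm2 was 2.58-fold higher, the helicase factor Gins2 5.06-fold higher and DNA ligase Lig1 2.23-fold higher. The cell cycle inhibitor Cdkn1a, a target of p53, rose alongside, from 2.64 to 8.90 CPM with a median of 5.52 against 9.74 to 36.5 with a median of 19.8, a change of 1.90 on the log2 scale (SE 0.33, adjusted p = 9.05e-05). It too separated the groups. Of 18 p53 targets 8 were higher and 1 lower, with Btg2 2.9-fold higher, Phlda3 3.76-fold higher and Eda2r 2.31-fold higher. Of 20 genes of fetal liver and liver tumours 14 were higher and 0 lower, of 30 listed. That count is a description, since low members can pass the filter on counts only through the group in which they are high. Of all tested genes of 1 to 10 CPM 31.4% were higher. Besides Ly6d, the rises include the imprinted Mest at 2.56-fold higher, the hyaluronan receptor Cd44 at 3.56-fold higher and the factor Sox4 at 4.12-fold higher. Leukocytes also express Cd44.

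Of 18 tested genes of bile duct and progenitor cells, of 21 listed, 13 were higher and 0 lower (median 1.12), but the list mean was above all low-fat livers in only 4 of 7 Western livers. Spp1, osteopontin, which macrophages also make, ran from 25.4 to 103 CPM with a median of 36.9 against 72.2 to 434 with a median of 215, a change of 2.38 on the log2 scale (SE 0.40, adjusted p = 7.92e-05). The groups overlapped at their edges. Cd24a was 3.51-fold higher, Bicc1 2.59-fold higher and Tm4sf4 1.5-fold higher. Within index D502 no gene of the list was called higher (0 of 18), and the adjusted p by edgeR was 0.056 for Spp1, 0.143 for Cd24a, 0.295 for Bicc1 and 0.152 for Tm4sf4.

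Most cytoskeleton genes rose. Of 43 actin, tubulin and filament genes 28 were higher and 3 lower. Krt8, a keratin of hepatocytes and duct cells, ran from 120.5 to 251 CPM with a median of 204 against 307 to 533 with a median of 449, a change of 1.22 on the log2 scale (SE 0.17, adjusted p = 1.41e-05). Its partner Krt18 was 1.8-fold higher, the actin-capping Capg, abundant in macrophages, 5.72-fold higher, and moesin, Msn, 2.04-fold higher. Of 24 annexins, S100 proteins and galectins tested, of 36 listed, 16 were higher and 0 lower. Low members of this list, too, can pass the filter on counts only through the group in which they are high. Anxa2, a calcium-dependent membrane binder, ran from 15.5 to 36.2 CPM with a median of 21.3 against 75.1 to 244 with a median of 179.9, a change of 2.74 on the log2 scale (SE 0.30, adjusted p = 1.26e-06). Krt8 and Anxa2 separated the groups in full. Anxa5 was 3.42-fold higher, S100a11 5.83-fold higher and Lgals3, a galectin of macrophages, 7.48-fold higher. Integrins and adhesion receptors gave 20 higher and 2 lower of 33 tested and 39 listed, Itga9 among them at 1.89-fold higher.

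Most class II antigen presentation genes rose, and most class I genes were not called. Of 14 class II genes 11 were higher (78.6%, median 1.77). Of 23 class I genes 6 were higher (26.1%, near the 20.4% of all tested genes) and 2 lower (median 0.18). The difference between the lists was not tested. Ctss, the cathepsin that trims the class II chaperone, ran from 18.7 to 47.4 CPM with a median of 27.1 against 53.6 to 190.1 with a median of 104, a change of 1.89 on the log2 scale (SE 0.28, adjusted p = 1.99e-05). The groups did not overlap. The class II chain H2-Ab1 was 3.98-fold higher and the invariant chain Cd74 3.64-fold higher. H2-DMa and H2-DMb1, which load peptides, were 3.21-fold higher and 3.78-fold higher, and the class I genes H2-D1 and H2-Q4 1.31-fold higher and 1.45-fold higher. Without Western liver 34, 3 class I genes were higher. The class II list mean was 0.52 in liver 32, 0.73 in liver 36 and 1.3 to 2.09 in the other Western livers, beside -0.45 to 0.79 on low-fat diet.

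Most genes of innate sensing rose. Of 27 pattern recognition and inflammasome genes 22 were higher and 1 lower (median 1.39). Tlr2, a receptor of bacterial lipoproteins, ran from 1.35 to 4.86 CPM with a median of 2.46 against 4.26 to 17.4 with a median of 8.13, a change of 1.84 on the log2 scale (SE 0.28, adjusted p = 3.03e-05). Only Western liver 32 overlapped the low-fat livers. Its partner Tlr1 was 5-fold higher, the endotoxin co-receptor Cd14 4.84-fold higher and the glucan receptor Clec7a 8.46-fold higher. Of 32 interferon-stimulated genes 21 were higher and 0 lower. Oas2, an antiviral nucleotide synthetase, ran from 3.61 to 5.94 CPM with a median of 4.89 against 7.12 to 20.9 with a median of 13.6, a change of 1.5 on the log2 scale (SE 0.21, adjusted p = 1.26e-05). Oas2 separated the groups, while Oas3 was 4.28-fold higher, Ifit2 3.62-fold higher and Oasl2 2.94-fold higher. Over the interferon list liver 32 was at -0.07, inside the low-fat range of -0.22 to 0.47. Of 21 tested genes of the tumour necrosis factor superfamily, of 42 listed, 17 were higher. Low members can pass the filter on counts only through the group in which they are high, so this count is a description. Of all tested genes of 1 to 10 CPM 31.4% were higher. The receptor Tnfrsf21 was 2.46-fold higher, Tnfrsf23 3.51-fold higher, Ngfr 1.89-fold higher and the ligand Tnfsf12 1.66-fold higher. Many genes of these lists are expressed by macrophages, whose markers were higher in the same livers, and the part of macrophage number was not tested.

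Lymphocyte genes were low and mostly not called. Of 25 T cell genes listed, 10 passed the filter on counts, and 2 of them were higher, a share near that of all genes. Themis, a signalling protein of T cells, ran from 0.176 to 4.31 CPM with a median of 0.938 against 10.5 to 18.9 with a median of 17.5, a change of 3.26 on the log2 scale (SE 0.38, adjusted p = 2.78e-06). It separated the groups. Cd8a was 5.25-fold higher (log2 fold change 2.39, 1.67 without Western liver 14 and 3.22 without low-fat liver 19), and 8 of the tested T cell genes were not called. Cytotoxic lymphocyte genes gave 4 higher of 10 tested and 24 listed, with the chemokine Ccl5 at 4.48-fold higher and the receptor Havcr2 at 3.64-fold higher, and 2 without Western liver 14. With no filter, or by DESeq2, 8 were higher. Of 17 tested B cell and plasma cell genes, of 26 listed, 1 was higher, the receptor Cd22 at 1.9-fold higher. Dendritic cell genes gave 9 higher of 15 tested and 20 listed, with the integrin Itgax 7.84-fold higher, Irf8 2.52-fold higher and Batf3 5.57-fold higher. Itgax is also a macrophage gene. Of 21 neutrophil genes listed 6 were tested and 4 were higher, with the receptor Csf3r at 2.36-fold higher. More of them enter the test without the filter, and then 11 were higher, or 10 by DESeq2. The T cell, cytotoxic and neutrophil lists summed to means of 20.6, 14.9 and 11.1 CPM on low-fat diet. Genes this low can pass the filter on counts only through the group in which they are high, so the counts of these lists are descriptions. Of all tested genes of 1 to 10 CPM 31.4% were higher, and of those below 1 CPM 34.1%.

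Endothelial genes were read in lists for sinusoids and for other vessels. Of 21 genes of sinusoids, the liver's leaky capillaries, 7 were higher and 2 lower, with 4 higher without low-fat liver 20 or Western liver 23. Lyve1, a hyaluronan receptor of sinusoids and of some macrophages, ran from 3.12 to 11.8 CPM with a median of 4.49 against 9.75 to 26.2 with a median of 13.4, a change of 1.37 on the log2 scale (SE 0.27, adjusted p = 3.58e-04). Its groups overlapped. The receptor Flt4 was 1.66-fold higher, Ehd3 1.34-fold lower and Wnt9b, a signal for zonation, 2.04-fold lower. Of 27 genes of other vessels 15 were higher and 0 lower, among them Plvap at 1.91-fold higher, Icam1 at 2.67-fold higher and the basement membrane collagen Col4a2 at 2.35-fold higher, which other cells also make. The list mean was above all low-fat livers in 7 of 7 Western livers for the second list and in 1 for the first. Resident Kupffer cell genes gave 8 higher (3 within index D501) and 2 lower of 16, with Cd5l 3.27-fold higher and Clec1b 2.25-fold higher. The mean over the Kupffer list was above all low-fat livers in only 1 of 7 Western livers, liver 32 at 0.64. Its Western median was 0.06, inside the low-fat range of -0.50 to 0.54.

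Nearly every called lysosome gene rose. Of 40 tested 19 were higher and 2 lower (median 0.21), and all 7 Western livers had a list mean above all low-fat livers. The protease Lgmn was 2.32-fold higher, Laptm5 3.21-fold higher, and Ctse 9.8-fold higher from a mean of 0.205 CPM, while Cd68, a macrophage lysosome protein, was 3.74-fold higher. Of 19 subunits of the proton pump that acidifies lysosomes 7 were higher (36.8%, beside 20.4% of all tested genes). Atp6v1b2 was 1.33-fold higher and Atp6v0d2 3.31-fold higher.

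Of 27 metal genes 7 were higher (25.9%) and 6 lower (22.2%), near the 20.4% and 17% of all tested genes. Slc39a4, a zinc importer best known from the gut, ran from 1.76 to 13.1 CPM with a median of 6.25 against 29.3 to 78.3 with a median of 64.3, a change of 3.16 on the log2 scale (SE 0.30, adjusted p = 2.03e-07). The groups were well apart. Mt1, a metallothionein that binds zinc, ran from 0.921 to 7.59 CPM with a median of 1.77 against 3.87 to 14.9 with a median of 10.6, a change of 1.85 on the log2 scale (SE 0.36, adjusted p = 2.77e-04). The groups overlapped through Western liver 32, the lowest of its group. Mt2 was 5.3-fold higher, and the manganese exporter Slc30a10 2.84-fold lower. Of 25 iron genes 8 were higher (32%, beside 20.4% of all tested genes) and 5 lower (20%, near 17%). The haem oxygenase Hmox1 was 1.98-fold higher and the metalloreductase Steap4 1.77-fold higher.

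Of 120 tested intergenic long non-coding RNA genes 13 were higher (10.8%) and 22 lower (18.3%), beside 20.4% and 17% of all tested genes. Snhg18, a host gene of a small nucleolar RNA, ran from 0.829 to 2.06 CPM with a median of 1.46 against 4.72 to 8.17 with a median of 6.15, a change of 2.09 on the log2 scale (SE 0.21, adjusted p = 4.20e-07). It separated the groups. Pvt1, the neighbour of Myc, was 2.74-fold higher, 4632428C04Rik 3.52-fold higher and 4933404O12Rik 2.15-fold lower. The strand setting of the counts is not given, so reads from an overlapping gene on the other strand cannot be told apart.

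**Figure D4:**
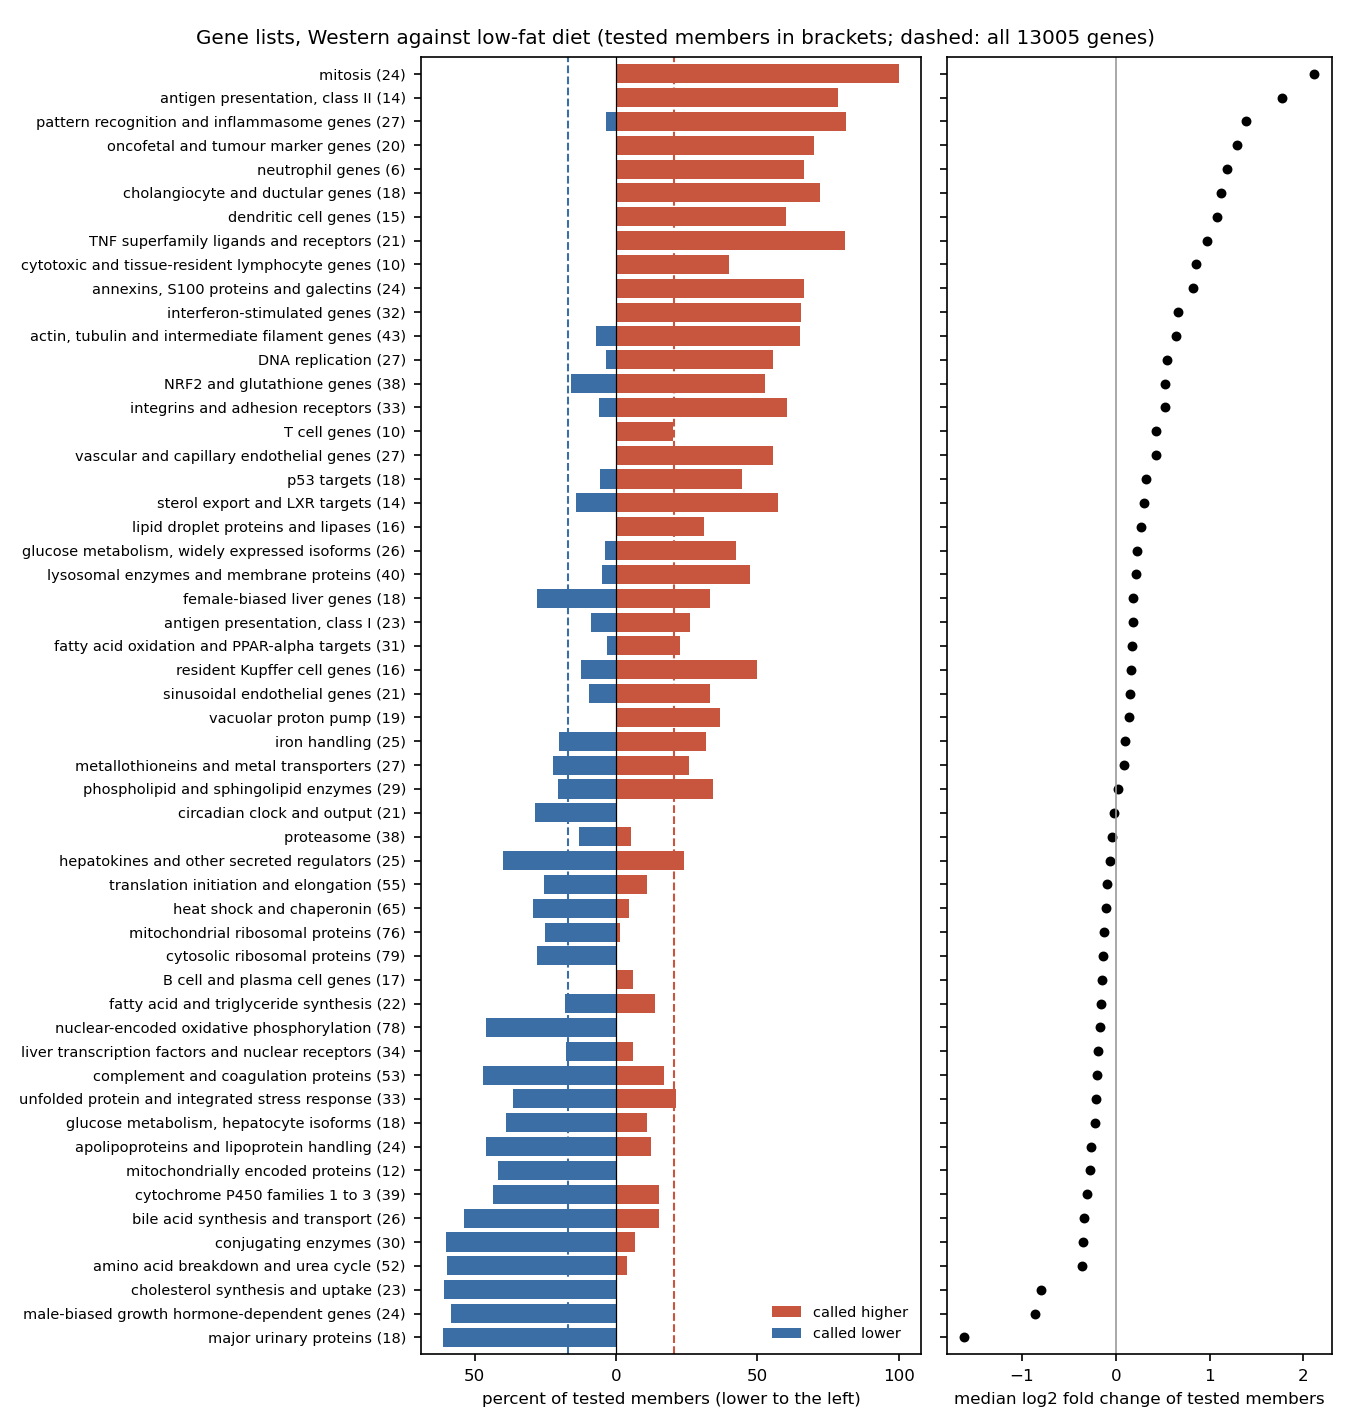
Percent of tested members called higher (red, to the right) or lower (blue, to the left) and median log2 fold change for 54 gene lists, ordered by the median, with dashed lines at the shares of all tested genes (20.4% and 17%). Mitosis stands at the top, with all 24 tested members higher, and the major urinary proteins at the bottom.

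The Western livers varied in a graded way. Liver 14 had the highest list mean for class II, interferon, annexin and ductular genes and the lowest for amino acid breakdown, while liver 5 was the highest for mitosis and the lowest for the male-biased genes and major urinary proteins. Livers 32 and 36 were nearest to the low-fat livers for all of these. For lipid droplet genes the low-fat livers ran from -0.53 to 0.65, with 5 of 7 Western livers above them all. There livers 32 and 36 were not the nearest: liver 32 was at 0.83 and liver 36 at 0.78, inside the 0.59 to 0.92 of the other Western livers. The same held for sterol export, with 0.28 and 0.33 inside 0.19 to 0.47. For conjugating enzymes 1 more Western liver lay close to them, at -0.15 beside -0.12 and -0.10.

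**Figure D5:**
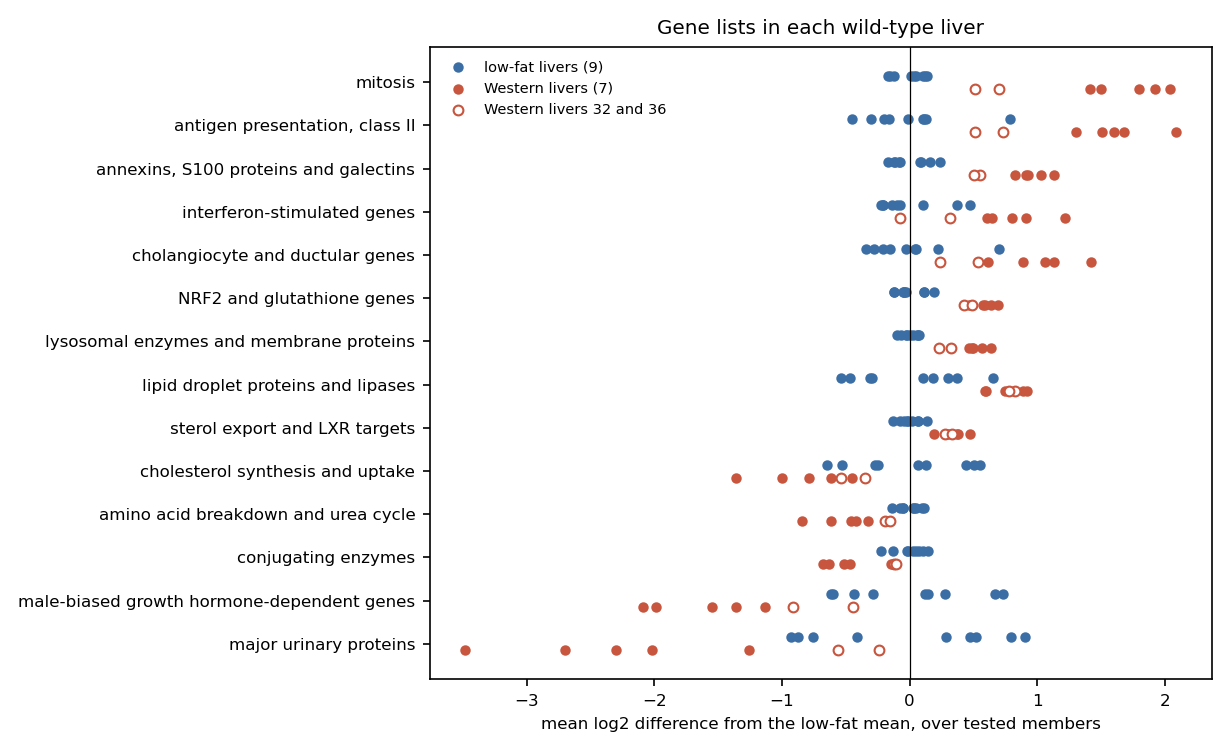
Mean log2 difference from the low-fat mean over the tested members of 14 lists (horizontal) for each of 9 low-fat livers (blue) and 7 Western livers (red). Livers 32 and 36, drawn open, lie nearest the low-fat livers of all Western livers for mitosis, class II, amino acid and male-biased genes, and among the other Western livers for lipid droplet and sterol export genes.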

How the data were processed

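Western and low-fat diet livers of wild-type mice, 1 library per mouse number in the titles, were compared on the raw read counts per Ensembl gene that the authors deposited, with no normalization. Per the submitters' processing notes, TopHat2 2.0.11 and HTSeq were used with GRCm38; the annotation release, strand setting and filters are not given in the sources used here. Of 38293 genes, 36429 matched GENCODE vM21, which gave symbols, types and positions. No 2 libraries of a group were alike beyond counting error (lowest chi-square per degree of freedom 8.38). Nothing states that livers came from separate litters or cages, and p-values measure the spread between mice.

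Counts of 23 libraries in 3 groups (the third is the Western diet knockout) were fitted in 1 model with edgeR 4.0.16 (R 4.3.3), TMM normalization, filterByExpr, the quasi-likelihood F-test and Benjamini-Hochberg adjustment over 13005 genes. A gene was called at an adjusted p below 0.05. The procedure was tested on simulated data. Levels are TMM-normalized CPM, SE is that of the log2 fold change, and folds are 2 to its absolute value. Alternatives used DESeq2 1.42.0, limma 3.58.1, other scalings and filters, single i5 indexes and fewer livers. A left-out liver is named by its mouse number.

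The members and gene lists were chosen with earlier results of these data known. Named genes are the 10 largest rises and falls without overlap at a mean of 10 CPM or more, the 10 largest gains and losses of CPM, up to 4 called and 2 uncalled members per list, and up to 5 non-coding RNAs. Outside this rule, and named after their values were seen, are Sqle, Abcg5, Cyp27a1, Cyp7a1, Hsp90b1, H2-Ab1, Cd74, Cdc20 and Kif23. Also outside it, and named for direction only, are Gclc, Gclm, Txnrd1, Osgin1, Prdx1, Cat, Sod1 and Sod2. Genes at or below 3 counts in all low-fat libraries are not reported. Promoters are RefSeq's (GRCm38.p6), 250 bases before each start. Reads of near-identical genes (Mup, Cyp2c, Cyp2d, Cyp3a, Ugt2b, Gsta, Gstm, Serpina1 and H2-Q) and of overlapping or antisense genes may be misassigned. Some items are not reported here.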

Additional observations from a re-analysis of the deposited data

Results flagged for a closer look

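In 94 groups of library values (47 genes with values in each liver, on each diet), 3 held a liver far from its group by Dixon's test, where chance marks about 1 group in 20. Nqo1 was highest in Western liver 17, at 23.5 CPM, with the next liver at 18.0 CPM. Themis was lowest in Western liver 32, at 10.5 CPM, with the next liver at 15.1 CPM, though still above every low-fat liver. Mt1 was lowest in Western liver 32 as well, at 3.87 CPM, with the next liver at 8.83 CPM.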

How the results depend on the processing

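The number of genes called (4869) stayed within 1.5 times its value under the other normalizations, filters and tools, within index D501 (3645) and on leaving out 1 liver at a time (4222 to 5031). It was 990 when a fold above 1.5 was tested and 1401 in the 5 low-fat and 4 Western libraries of index D502. Western livers 32 and 36 are both among the latter, so the part of the index cannot be told apart from theirs. With upper quartile scaling 64.4% of called genes were higher, against 54.5%. Genes without overlap numbered 946, or 965 to 1364 on leaving out 1 liver at a time. They numbered 2229 without Western livers 32 and 36, 4594 in D501 alone and 1727 in D502 alone, where fewer livers must stay apart. These alternatives on overlap were chosen after seeing the data. Fasn reversed to a log2 fold change of 0.10 in D501 alone. Of 5941 values of 205 named genes, without those named for direction only, 5767 kept direction and side of the threshold. A further 170 lost the call, most of them with the fold threshold or in D502 alone, and 3 gained it. Of 1943 list counts 198 moved by more than 1.5 times. Within D502 no rise of a class I or proton pump gene was called (0), and no fall in the lists of fatty acid synthesis, the mitochondrial genome and the proteasome (0).

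No paired analysis was possible because the low-fat and Western diet livers share no mouse number. Depth limits genes below about 1 CPM, which pass the filter on counts only through the group in which they are high. Total RNA per liver was not analysed here, so CPM gives shares of a library. The labels give no hour of collection, feeding state or histology here. Lists overlap, and a gene in several is counted in each.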
